A study of Homo sapiens with 5 samples.

Results

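The genes described here were the plasminogen activators PLAU and PLAT, the activator receptor PLAUR, the inhibitory serpins SERPINE2, SERPINI1 and SERPINB2, and the adhesion molecule L1CAM. These 7 genes were taken as a set by name. They belong to a protease and adhesion axis tied to the growth of brain metastases along vessels. No measured value entered the rule, but earlier results of these data were known when the set was chosen. Of the 7, 6 were found by name in the gene table of the series and 1, SERPINB2, by its name in GENCODE release 29, among 64837 gene entries. RNA-Seq was performed on NCI-H209, an established human SCLC cell line, in 3 control libraries labelled untreated and in 2 libraries of cells co-cultured with HBMECs, endothelial cells of small vessels of the human brain. The co-cultured cells had shared medium with HBMECs across a Transwell membrane for 24 h, after both cell types had been incubated apart for 12 h. No genetic change was made in either group, and both groups are a single cell line in culture. The comparison addressed how the endothelium of the brain alters gene expression in tumor cells that do not touch it. Whether the control wells held an insert without HBMECs is not given in the sources used here. HBMECs were grown in medium with Nu-serum, which the medium of NCI-H209 cells lacked, and the medium of the co-culture is not given. Effects of the insert, of the medium and of the HBMECs thus cannot be told apart.

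Plasmin is a broad serine protease made from plasminogen by 2 activators, urokinase (uPA, encoded by PLAU) and tissue plasminogen activator (tPA, encoded by PLAT). PLAUR encodes the receptor that holds uPA at the cell surface. Serpins are suicide inhibitors that trap such proteases, and neuroserpin (SERPINI1), protease nexin-1 (SERPINE2) and PAI-2 (SERPINB2) all act on plasminogen activators. In experimental brain metastasis, plasmin made by stromal cells of the brain can release FAS ligand and cut L1CAM, an adhesion molecule that tumor cells use to spread along capillaries, and serpins made by tumor cells can block both.

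In the co-cultured cells, PLAU, SERPINE2, SERPINI1 and L1CAM were higher and PLAUR was lower, while PLAT did not pass the test and SERPINB2 had no reads. Of the members that rose, PLAU changed 3.91-fold, SERPINE2 2.20-fold, SERPINI1 1.93-fold and L1CAM 1.24-fold, and PLAUR was 1.78-fold lower. An activator and both detected inhibitors of the set thus had more mRNA in the same libraries, and the receptor of that activator had less. The calls of PLAUR and L1CAM depended on single libraries, and that of L1CAM also on the normalization. In these bulk libraries, fewer cells of a type and less RNA per cell cannot be told apart.

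The 5 libraries held 15457071 to 19157348 counts on genes, taken from the strand of the directional library, which held 92.3% to 93.1% of the counts on genes. Levels are given as CPM, read counts scaled to a common library size by TMM, and the 20360 genes that passed a filter on low counts were compared with the quasi-likelihood test of edgeR, its p adjusted by Benjamini-Hochberg over all of them. The share of unmapped reads was 8.13% to 8.48% in control and higher, at 15.9% and 16.8%, after co-culture, and its part in the results was not tested. Whether the replicates are separate cultures is not given in the sources used here, so p-values measure the spread between these libraries, which may be technical. Neuroendocrine markers, typical of SCLC, were expressed above the filter for 11 of 12 genes, with a summed level of 2408.5 to 3013 CPM in control and 3127 to 3241 CPM after co-culture. Of the 11 markers tested, 3 were called higher and 1 lower, beside 18.4% and 15.0% of all genes tested. CHGA had a single read in all libraries. The summed level of 15 endothelial markers was 9.88 to 19.8 CPM in control and 13.0 to 13.5 CPM in co-cultured libraries. Of these 15 markers, MMRN1 and PLVAP had 0 counts throughout, the defining genes CDH5 and PECAM1 had at most 18 counts and VWF 75 to 159 counts per library, and only ESAM passed the test, with 3, 4 and 6 reads in control and 21 and 14 after co-culture (edgeR adjusted p = 0.00666, and 0.0968 without co-cultured replicate 1).

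**Figure D1:**
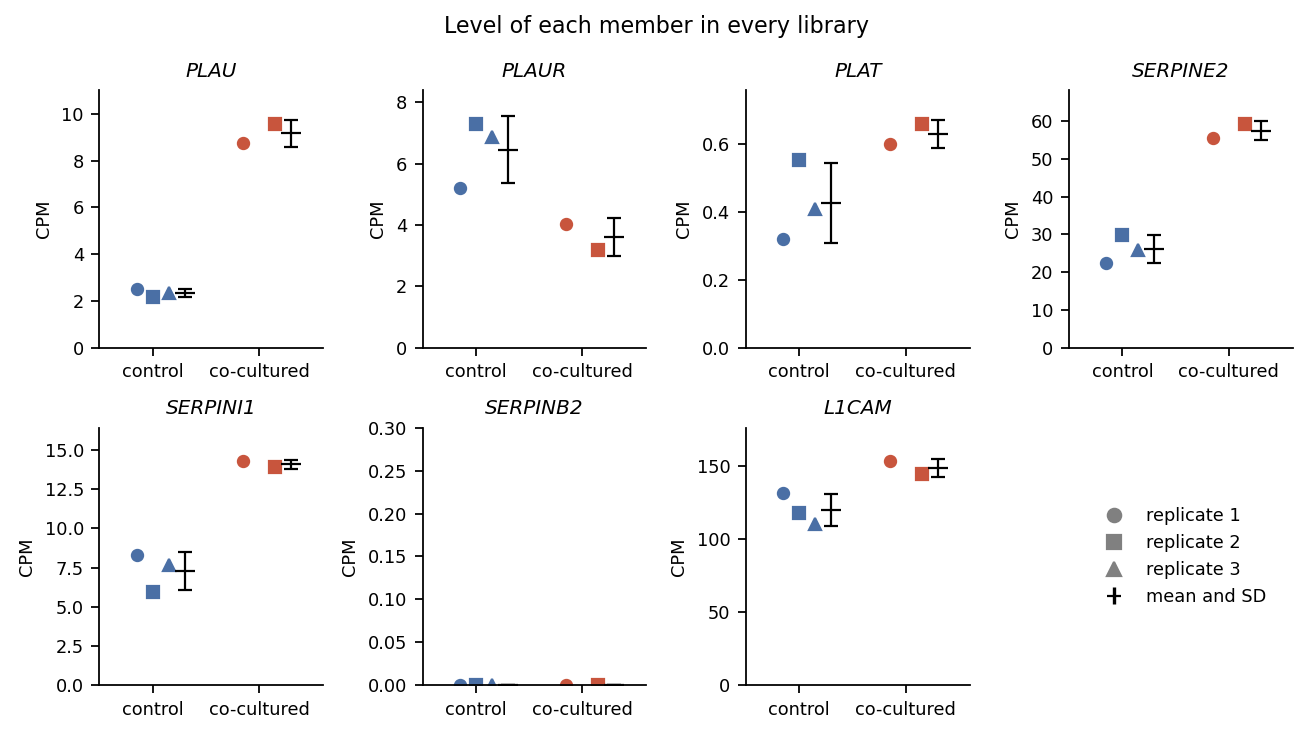
Level of each member in every library, in CPM on a linear axis that starts at 0 in each panel, for the 3 control and the 2 co-cultured libraries. Points are libraries and bars the mean and SD of the group. PLAU, SERPINE2, SERPINI1 and L1CAM lie above all control libraries in both co-cultured libraries, PLAUR lies below, and SERPINB2 is at 0.

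At a threshold of 0.05 on the adjusted p, 33.4% of all genes tested were called, with 18.4% higher after co-culture and 15.0% lower. Under upper-quartile normalization this split turned, with 3076 genes higher and 3929 lower in place of 3750 and 3059. Of the 7 members, 6 passed the filter, and 5 of these were called at that threshold, with 4 higher and 1 lower. At the criterion of the study for DEGs, taken as a log2 fold change beyond 1 in size at an unadjusted p under 0.05, 2 members were upregulated and 0 downregulated, where 10.5% of all genes tested were DEGs and 5.44% were upregulated DEGs. Both upregulated members, PLAU and SERPINE2, also passed the adjusted threshold. The groups did not overlap for 6 members, 5 higher and 1 lower, against 59.4% of all genes tested, so that for most genes of these libraries the groups were apart. The median log2 fold change of the 6 members tested was 0.75, and that of all genes tested was -0.03.

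PLAU (ENSG00000122861.15, GRCh38 chromosome 10 from 73909177 to 73917497, plus strand) encodes uPA, the activator that works mainly at cell surfaces. The control libraries held 47, 39 and 46 PLAU reads and the co-cultured ones 160 and 145. In CPM these were 2.50, 2.16 and 2.36 in control and 8.74 and 9.58 in co-cultured cells. The lowest co-cultured library was thus more than 3 times the highest control library, and the controls lay close together. PLAU averaged 2.34 ± 0.172 CPM in control (SD, n = 3) and rose to 9.16 ± 0.589 CPM (SD, n = 2). The log2 fold change was 1.97 (standard error 0.179, 95% interval 1.56 to 2.37, edgeR adjusted p = 0.000111). Over the 14 alternative settings its log2 fold change stayed between 1.89 and 2.04. C10orf55, a gene that overlaps PLAU on the opposite strand, had 2 counts or fewer per library, and reads opposite to PLAU numbered 0 in all 5 libraries.

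PLAT (ENSG00000104368.17, chromosome 8 from 42175233 to 42207724, minus strand) encodes tPA, the activator best known for dissolving clots and for its roles in the brain. PLAT reads numbered 6, 10 and 8 in control and 11 and 10 after co-culture, or 0.319 to 0.553 CPM and 0.601 and 0.661 CPM. All values lay above the floor, taken as the level of 3 counts, of 0.154 to 0.198 CPM, but by a few reads only. The groups did not overlap, but the log2 fold change of 0.56 did not pass the test (standard error 0.451, 95% interval -0.46 to 1.57, edgeR adjusted p = 0.375), and the interval reaches from a modest fall to a rise of over 2-fold. Unlike for the other members tested, most reads over PLAT lay on the opposite strand, with 58, 68 and 66 reads in control and 60 and 43 after co-culture. The opposite strand held 90.6%, 87.2% and 89.2% of the reads in control (exact binomial 95% intervals from 77.7% to 96.5%) and 84.5% and 81.1% in co-cultured libraries (68.0% to 92.0%), intervals that cover counting error only. No annotated gene overlaps PLAT. When both strands were counted together, its log2 fold change was 0.00 (edgeR adjusted p = 0.995), so a level of PLAT taken without strand would describe mainly the opposite strand.

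**Figure D2:**
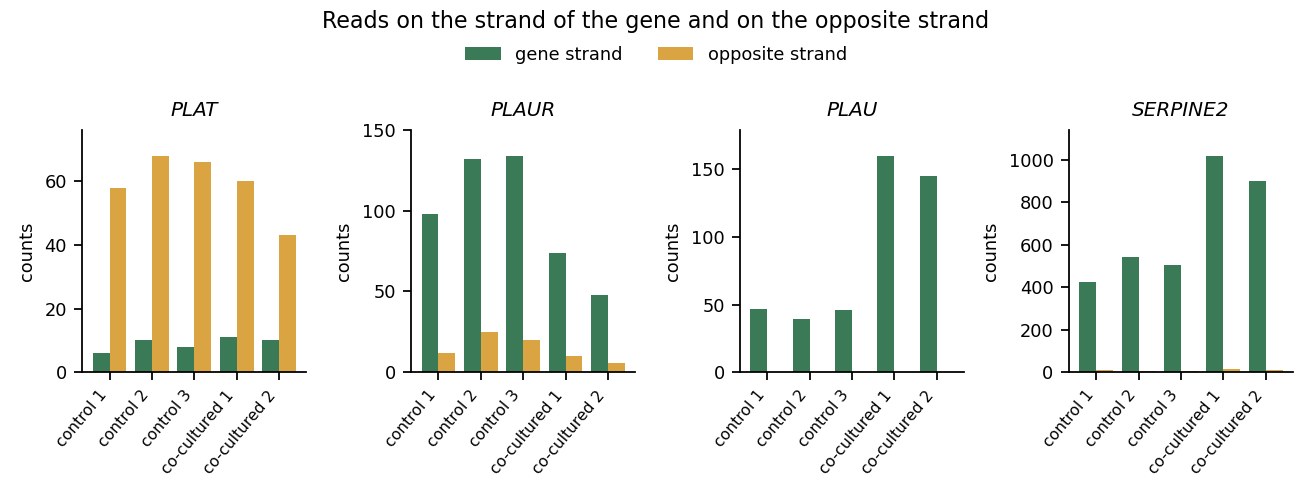
Counts per library on the strand of the gene and on the opposite strand, for PLAT, PLAUR, PLAU and SERPINE2, on linear axes from 0 that differ between panels. PLAT has 43 to 68 counts on the opposite strand and 6 to 11 on its own, whereas in the other 3 genes the strand of the gene holds most reads in every library.

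PLAUR (ENSG00000011422.11, chromosome 19 from 43646095 to 43670547, minus strand) encodes the lipid-anchored receptor of uPA. PLAUR reads numbered 98, 132 and 134 in control and 74 and 48 after co-culture, which gave 5.21, 7.30 and 6.86 CPM and 4.04 and 3.17 CPM. Both co-cultured libraries lay below all controls, with control replicate 1 nearest to them. PLAUR averaged 6.46 ± 1.10 CPM in control (SD, n = 3) and fell to 3.61 ± 0.618 CPM (SD, n = 2), 1.78-fold lower. The log2 fold change was -0.83 (standard error 0.221, 95% interval -1.33 to -0.33, edgeR adjusted p = 0.0183). The call depended on single libraries. Without control replicate 2, control replicate 3, co-cultured replicate 1 and co-cultured replicate 2 in turn, the edgeR adjusted p was 0.0667, 0.0573, 0.0675 and 0.152, while the log2 fold change stayed between -1.02 and -0.67. The opposite strand held 10.9% to 15.9% of the reads over PLAUR in each library, and RN7SL368P, a small noncoding gene on the same strand within it, had 1 to 7 counts. Per kilobase of exon, the ratio of PLAU to PLAUR was 0.725, 0.446 and 0.519 in control and 3.27 and 4.56 after co-culture, so the receptor had the higher level in every control library and the activator in both co-cultured libraries.

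SERPINE2 (ENSG00000135919.12, chromosome 2 from 223975112 to 224039319, minus strand) encodes protease nexin-1, a cell-associated inhibitor of thrombin, uPA, tPA and plasmin. SERPINE2 reads numbered 422, 540 and 506 in control and 1018 and 898 after co-culture, or 22.4, 29.9 and 25.9 CPM against 55.6 and 59.3 CPM. Every co-cultured value was well above the highest control. SERPINE2 averaged 26.1 ± 3.71 CPM in control (SD, n = 3) and rose to 57.5 ± 2.60 CPM (SD, n = 2). The log2 fold change was 1.14 (standard error 0.118, 95% interval 0.87 to 1.41, edgeR adjusted p = 0.000204). The estimate lay between 1.05 and 1.25 in all 14 alternatives, with an adjusted p of at most 0.00631.

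SERPINI1 (ENSG00000163536.12, chromosome 3 from 167735243 to 167825568, plus strand) encodes neuroserpin, a secreted inhibitor found mainly in neurons that prefers tPA. SERPINI1 reads numbered 156, 107 and 149 in control and 261 and 210 after co-culture, or 8.29, 5.92 and 7.63 CPM against 14.3 and 13.9 CPM. The co-cultured libraries lay close together above the wider spread of the controls. SERPINI1 averaged 7.28 ± 1.23 CPM in control (SD, n = 3) and rose to 14.1 ± 0.278 CPM (SD, n = 2). The log2 fold change was 0.95 (standard error 0.162, 95% interval 0.58 to 1.31, edgeR adjusted p = 0.00235). It passed the adjusted threshold in all 14 alternatives, with an adjusted p of at most 0.0341. Its log2 fold change was under the 1 of the study's criterion, but was 1.05 without control replicate 1.

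SERPINB2 (ENSG00000197632.8, chromosome 18 from 63871692 to 63903890, plus strand), which encodes PAI-2, had 0 counts in all 5 libraries on either strand. A count of 0 allows up to 3 counts, or 0.154 to 0.198 CPM per library, and reads shared with SERPINB10, which overlaps it on the same strand and also had 0 counts, would have been counted for neither gene. A change of SERPINB2 was therefore not detectable at this depth.

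L1CAM (ENSG00000198910.13, chromosome X from 153861514 to 153886174, minus strand), a transmembrane adhesion molecule of the immunoglobulin superfamily that is typical of growing axons, was the most abundant member. L1CAM reads numbered 2471, 2128 and 2145 in control and 2798 and 2180 after co-culture, or 131, 118 and 110 CPM against 153 and 144 CPM. The raw counts of the groups overlapped, and the groups were apart only after scaling to library size. L1CAM averaged 119.6 ± 10.9 CPM in control (SD, n = 3) and rose to 148 ± 6.31 CPM (SD, n = 2). The log2 fold change was 0.31 (standard error 0.0914, 95% interval 0.11 to 0.52, edgeR adjusted p = 0.0279). This small rise passed the adjusted threshold in 8 of the 14 alternatives. Among the others, it did not pass under upper-quartile normalization (log2 fold change 0.23, edgeR adjusted p = 0.0535) or when any library other than control replicate 1 was left out (log2 fold change 0.26 to 0.36, edgeR adjusted p of 0.0675 to 0.189). Reads on the strand opposite to L1CAM numbered at most 2 in any library.

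Levels of different genes were compared per kilobase of exon (CPM divided by the length of the merged exons). In control cells the order was L1CAM at 16.5 ± 1.50, SERPINI1 at 3.01 ± 0.507, SERPINE2 at 2.93 ± 0.418, PLAUR at 1.45 ± 0.247, PLAU at 0.792 ± 0.0583 and PLAT at 0.0646 ± 0.0178 CPM per kb (SD, n = 3). The serpins SERPINI1 and SERPINE2 did not differ beyond their spread, while every other neighbour in this order was apart in all 3 libraries. In CPM, SERPINE2 (26.1) was above SERPINI1 (7.28) in control, and their merged exon lengths were 8891 and 2418 bases. Orders, ratios and percentiles per kilobase rest on such merged lengths, and which transcripts are used was not tested. In co-cultured cells L1CAM was at 20.4 ± 0.868, SERPINE2 at 6.46 ± 0.293, SERPINI1 at 5.82 ± 0.115, PLAU at 3.11 ± 0.200, PLAUR at 0.809 ± 0.139 and PLAT at 0.0953 ± 0.00634 CPM per kb (SD, n = 2). PLAU and PLAUR had changed places, and SERPINE2 lay above SERPINI1 in both libraries. Among the 13697 protein-coding genes tested, ranked by CPM per kb, PLAU moved from percentile 16.2 to 33.8, SERPINE2 from 33.3 to 52.1 and SERPINI1 from 33.8 to 49.0. L1CAM stood at percentiles 82.0 and 84.6 and PLAUR at 22.5 and 16.0. Members other than L1CAM were thus in the lower part of the expressed genes of control cells.

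Taken by role, the 2 activators summed to 0.895, 0.815 and 0.860 CPM per kb in control and 3.06 and 3.35 CPM per kb in co-cultured libraries, nearly all of it PLAU. The serpins of the set summed to 5.95, 5.81 and 6.07 CPM per kb in control and 12.2 and 12.4 CPM per kb in co-cultured libraries. Serpin mRNA exceeded activator mRNA in every library. The ratio of serpins to activators was 6.65, 7.13 and 7.05 in control and 3.98 and 3.71 after co-culture, lower in both co-cultured libraries, as PLAU changed by more than either serpin. An exact permutation test of 3 against 2 libraries cannot give a p under 0.1, and none was run on these ratios.

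The wider plasminogen system was described by 42 genes outside the set, of which 30 passed the filter on low counts. Of these 30, 9 were called higher and 2 lower on the adjusted p, 5 were upregulated DEGs and 0 downregulated DEGs, beside 18.4% called higher, 15.0% called lower and 5.44% upregulated DEGs among all genes tested. The share called in the list was near the 33.4% of all genes, and the median log2 fold change was 0.24, against -0.03 for all genes tested. PLG, which encodes plasminogen itself, had 0 counts in all 5 libraries.

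The list was sorted by role after its values were seen, into small groups. Of 6 proteins that bind plasminogen at the cell surface, 3 were higher and 1 lower, beside 18.4% and 15.0% of all genes tested. ENO1, a glycolytic enzyme that also serves as a plasminogen receptor, went from 6522, 6128 and 8543 counts to 19983 and 13774, a log2 fold change of 1.42 (edgeR adjusted p = 0.000104). S100A10, which pairs with annexin A2 to dock tPA and plasminogen, rose by 1.06 on the log2 scale (362, 249 and 310 counts against 656 and 487). Its partner ANXA2, named after its values were seen, rose by 0.98 on the log2 scale. KRT8, likewise named after its values were seen, fell by 0.64 on the log2 scale, a call lost without either co-cultured library (edgeR adjusted p up to 0.157).

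Among 10 partners and relatives of the uPA receptor, 7 were tested, 3 of them higher and 0 lower. The counts of this and the next groups stand beside 18.4% called higher and 15.0% called lower among all genes tested. ITGA5, the alpha chain of the fibronectin receptor with which PLAUR associates, went from 15, 35 and 46 counts to 497 and 259. Its log2 fold change of 3.70 (standard error 0.323, edgeR adjusted p = 9.35e-05) was the largest of the list, beside the fall of PLAUR itself. In a separate group of 5 genes, for other proteases and a cofactor, 3 were tested, with 1 higher, F12, and 0 lower. F12, the coagulation factor that starts the contact pathway, rose by 1.50 on the log2 scale, from 17, 29 and 47 counts to 93 and 64 (edgeR adjusted p = 0.00866, and 0.0945 without co-cultured replicate 1). Of the 9 endocytic receptors and their chaperone, which clear activator and serpin complexes from the surface, 0 were higher and 1 was lower, with log2 fold changes of -0.45 to 0.52. LRP1, the main clearance receptor for uPA and tPA bound to serpins, was named after its values were seen and had a log2 fold change of 0.22 (edgeR adjusted p = 0.321).

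The serpin family comprised 34 protein-coding genes, the members SERPINE2, SERPINI1 and SERPINB2 included. Of these, 20 had at most 3 counts in every library, 9 of them 0 counts throughout, and 9 were tested. Of the 9 tested, 6 were called higher and 0 lower, 3 were upregulated DEGs, and the median log2 fold change was 0.90, beside 18.4% called higher, 5.44% upregulated DEGs and a median of -0.03 over all genes. Among those tested, SERPINB6, SERPINB8, SERPING1 and SERPINI2 also stand in the plasminogen list, SERPINB6 and SERPING1 as called higher. The results of these lists are thus not separate. SERPINB9, the inhibitor of granzyme B, went from 44, 28 and 21 counts to 144 and 82, a log2 fold change of 2.01 (edgeR adjusted p = 0.00136). SERPING1, the C1 inhibitor, which also acts on contact factors, rose by 1.32 on the log2 scale from 8, 17 and 23 counts to 38 and 33 (edgeR adjusted p = 0.0271), but not past the threshold without control replicate 2 or either co-cultured library (up to 0.139). The serpins that were detectable were thus few, and SERPINE2 had the largest counts of those that rose. The collagen chaperone SERPINH1, a serpin without protease inhibition named here after its values were seen, had a log2 fold change of 0.10 (edgeR adjusted p = 0.645).

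Partners of L1CAM were described by 35 genes, of which 33 were tested. They had 13 genes called higher and 4 called lower, and their median log2 fold change was 0.28, beside 18.4% called higher, 15.0% called lower and a median of -0.03 over all genes. The 17 calls numbered 10 without control replicate 2, where the calls over all genes went from 6809 of 20360 tested to 5029 of 19839. They were also fewer without either co-cultured library, as were those over all genes. The closest relatives of L1CAM, the L1 family genes CHL1, NRCAM and NFASC (named after their values were seen), had log2 fold changes of 0.75, 0.15 and -0.12, and 0 of the 3 passed the adjusted threshold (edgeR adjusted p = 0.0929 to 0.482). Without control replicate 1 all 3 passed it, CHL1 with a log2 fold change of 1.21 (edgeR adjusted p = 1.53e-05), NRCAM with 0.15 (0.0367) and NFASC with -0.23 (0.00442). Of 10 extracellular partners and receptors, 6 were higher and 1 lower. ALCAM, an adhesion molecule of the same superfamily, went from 3102, 2375 and 2723 counts to 5581 and 4807, a log2 fold change of 1.10 (edgeR adjusted p = 0.000119). Of 10 cytoplasmic partners, 5 were higher and 2 lower. DCX, a microtubule-binding protein of migrating neurons that binds the L1 family, fell by 1.43 on the log2 scale, from 25, 43 and 66 counts to 13 and 16 (edgeR adjusted p = 0.0343), and lost its call when any library other than control replicate 1 was left out (up to 0.238). Of 5 genes of shedding and cleavage, 0 were higher and 1, the sheddase ADAM10 (named after its values were seen), fell by 0.44 on the log2 scale, with an edgeR adjusted p of 0.00377 that was 0.0697 without co-cultured replicate 2. Named after their values were seen, FAS, the death receptor, had 0 counts in all libraries, and its ligand FASLG had 1 count in 1 of the co-cultured libraries. ITGA5, ITGAV, ITGB1 and ITGB3 stand in both this list and that of the plasminogen system.

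**Figure D3:**
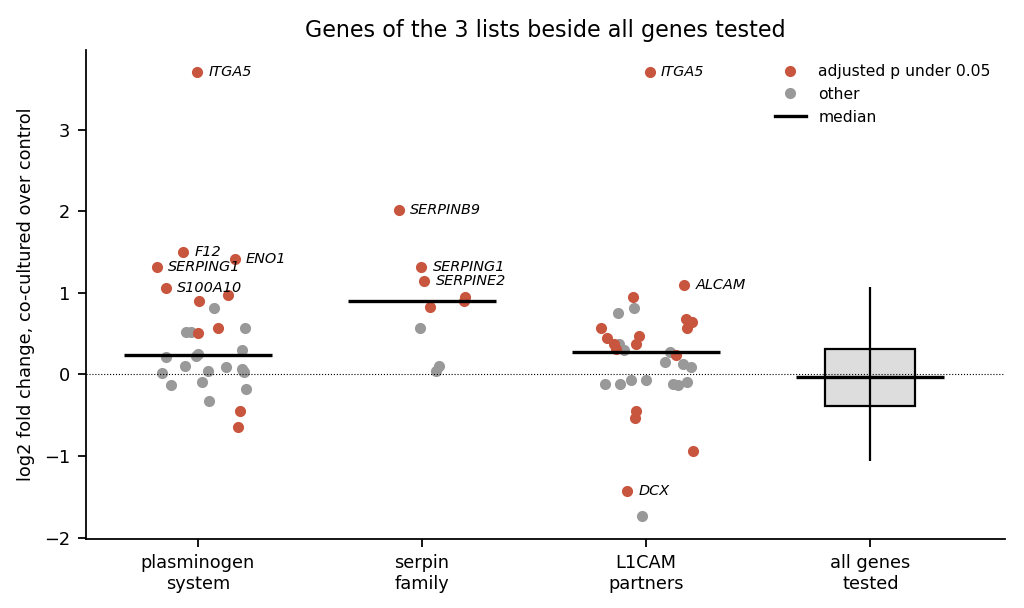
Log2 fold change with co-culture for the tested genes of the plasminogen system (30), the serpin family (9) and the L1CAM partners (33), 1 point a gene, with the median of each list as a line. The box gives the quartiles and the line through it the 5th to 95th percentile of all 20360 genes tested, and the list medians of 0.24, 0.90 and 0.28 stand beside -0.03 for all genes.

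In the RefSeq table of promoters on GRCh38.p14, 6 of the 7 members had entries that were used, 9 start sites in all, and the 250 bases upstream of each were searched on both strands for 5 motifs that were chosen after these sequences had been seen. The motifs were ACGTG and GCGTG (the cores bound by hypoxia-inducible factors), TGANTCA (bound by AP-1), CCAAT and GGGCGG (the GC box), which were present in 18.51%, 32.22%, 6.57%, 32.01% and 42.64% of the 35116 promoters of the table. A stretch around 1 match in each of 3 members with a changed level is given here on the strand of the gene, with the match in capitals.
PLAU, second start, chr10:73911007-73911036, plus strand, GCGTG read on the opposite strand: gcgttgcggaagCACGCggggtccgggtcg
PLAUR, chr19:43670337-43670366, minus strand, TGANTCA: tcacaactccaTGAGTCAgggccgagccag
SERPINE2, first start, chr2:224038755-224038784, minus strand, GCGTG: gcaccggggccgGCGTGgctcctgcccggc

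The PLAU match began 113 bases upstream of its start, that of PLAUR 186 bases and that of SERPINE2 132 bases. The second PLAU start also had 3 GC boxes. The L1CAM starts had GC boxes alone, 2 at each, and these are the same 2 sites since the windows overlap. SERPINI1, which rose, held 0 matches to the 5 motifs. PLAUR, which fell, also held GCGTG on the opposite strand 86 bases upstream. SERPINB2, which had no reads, held a TGANTCA match as PLAUR did, 102 bases upstream. Matches to GCGTG (32.22%) and the GC box (42.64%) are common among promoters, and those to TGANTCA (6.57%) less so. A match says nothing by itself about binding.

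The second SERPINE2 start, which lies inside the gene and in a window without annotated exons, stood apart by its repeats. Its 250 upstream bases, chr2:224031479-224031728 on the minus strand, are shown with CCAAT (or ATTGG, its reverse complement) in capitals, as well as ACGTG, which overlaps itself on both strands as CACGTG.
SERPINE2, second start: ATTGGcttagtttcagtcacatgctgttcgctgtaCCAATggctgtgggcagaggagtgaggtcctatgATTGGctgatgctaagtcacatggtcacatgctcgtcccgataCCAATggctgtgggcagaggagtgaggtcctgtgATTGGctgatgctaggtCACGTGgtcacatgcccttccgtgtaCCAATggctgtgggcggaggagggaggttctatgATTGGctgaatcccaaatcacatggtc
The window holds 7 matches to CCAAT, alternating in strand within repeated blocks, and 7 of the 35116 promoters (0.02%), itself included, hold at least as many. It was picked as the window of the members with the most such matches, for a motif chosen after the sequences were seen. The share is thus a description only. The 2 ACGTG matches began 87 and 86 bases upstream of the start, and 1 GC box, left in lower case, began 50 bases upstream. Which of the SERPINE2 starts is used in NCI-H209 cells cannot be told from counts per gene.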

How the data were processed

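RNA was harvested with Trizol, and directional libraries were made from RNA depleted of ribosomal RNA. Per the labels, the submitters' processing notes name CASAVA 1.8, STAR 2.6.1b, DESeq2 and GRCh38. The authors deposited raw counts of reads per gene for each library without regard to strand and for either strand, of which the column of the library strand was used. A table of the authors' comparison (means, fold changes and p-values) was used only for its gene names, and 0 columns of per-sample values were left unmapped. Read lines for unmapped, multimapping, ambiguous and no-feature reads were left out of the library sizes; no-feature reads were 47.3% to 51.2% of the control and 40.1% to 40.8% of the co-cultured libraries. A read that overlaps 2 genes on 1 strand is counted for neither.

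Counts were filtered with filterByExpr, scaled by TMM and fitted with the quasi-likelihood test of edgeR 4.0.16 in R 4.3.3, co-cultured against control, with no covariate. The standard error is the log2 fold change over the square root of F, and 95% intervals use the degrees of freedom of that test. The common dispersion was 0.0103. In simulated data with 19828 genes tested, 66 of 98 genes changed by 1 on the log2 scale and 90 of 98 changed by 2 were called, together with 9 unchanged genes. Only these genes were changed there, up and down alike, at the dispersions of the fit. The 9 therefore give no error rate for the measured data, where 33.4% of genes were called.

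The members and lists were chosen with earlier results of these data known. The genes named are all members, PLG, and from each list the 5 genes with the smallest p among those with an adjusted p under 0.05 and an absolute log2 fold change over 1, and genes with the nearest profile to a member. The result of 1 further gene that the rule names is not reported here. The sorting of the lists by role, the motifs and the markers named were chosen after the values were seen. So were the integrins and the serpins shared by 2 lists and the genes said so in the text. Sequences are from RefSeq (GRCh38.p14), and gene positions and exon lengths from GENCODE release 29. No 2 libraries were duplicates, since the chi-square per degree of freedom within groups was 4.41 to 17.7. Alternatives were DESeq2 1.42.0, edgeR's exact test, scaling by median ratios or upper quartiles, a minimum of 1 count in any library or of 10 in every library, unstranded counts, protein-coding genes only, a replicate block and each library left out in turn. Plots were drawn with matplotlib 3.10.9.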

Additional observations from a re-analysis of the deposited data

Results flagged for a closer look

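SERPINE2 had reads on the strand opposite to the gene, which no comparison of the report used, at a mean of 0.861 CPM (SD 0.0965, n = 2) in the co-cultured libraries, above the 0.372 ± 0.139 CPM (SD, n = 3) of the control libraries. They numbered 10, 5 and 6 in control and 17 and 12 after co-culture. As a share of the reads over the gene they were 2.31%, 0.917% and 1.17% in control and 1.64% and 1.32% after co-culture, within the range of the controls. The difference was not tested.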

How the results depend on the processing

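Each of the 6 members tested kept the sign of its log2 fold change under every alternative in which it could be fitted. For PLAT that value was 0.00 with unstranded counts (edgeR adjusted p = 0.995), which gives no direction. PLAU, SERPINE2 and SERPINI1 kept an adjusted p under 0.05 in all 14 alternatives. PLAT could not be fitted with at least 10 counts in every library. The members called at an adjusted p under 0.05 numbered 5, and 3 to 5 with 1 library left out (3 without control replicate 2, control replicate 3, co-cultured replicate 1 or co-cultured replicate 2). The members meeting the study's criterion numbered 2, and 2 to 3 with 1 library left out. With 1 library left out, the log2 fold change of PLAUR ran from -1.02 to -0.67 and that of L1CAM from 0.26 to 0.39. Upper-quartile normalization gave L1CAM 0.23 (edgeR adjusted p = 0.0535). Among all genes, 55.1% of the 6809 called were higher, but 43.9% under upper-quartile normalization, with 3076 higher and 3929 lower, and the median log2 fold change moved from -0.03 to -0.11. The genes called ran from 2734 without co-cultured replicate 1 to 9897 without control replicate 1. The DEGs of the study's criterion numbered 2128, 1280 with at least 10 counts in every library and 1257 over protein-coding genes only, which test fewer genes. In the plasminogen list 11 genes were called, 6 to 17 with 1 library left out (6 and 7 without co-cultured replicate 1 and 2, 17 without control replicate 1). Of the L1CAM partners 17 were called, and 6 to 24 with 1 library left out (10 without control replicate 2, 7 and 6 without co-cultured replicate 1 and 2). SERPINH1, which was not called, changed sign, with a log2 fold change of -0.018 to 0.28 with 1 library left out and -0.0083 with a replicate block. Except as stated, the cause was not tested; where 1 co-cultured library remains, it is assumed to vary like the controls.

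Whether the replicate numbers pair the libraries could not be settled. Deviations of same-numbered libraries correlated at -0.146 and -0.0822 across genes, over only 2 pairs. With a replicate block the L1CAM log2 fold change was 0.26 (edgeR adjusted p = 0.175) and 11 L1CAM partners were called, without DCX (-1.04, edgeR adjusted p = 0.0728). Depth limits PLAT, at 6 to 11 counts, and SERPINB2, at 0.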

Other observations

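By the root mean square difference between centred log2(CPM + 0.5) profiles over the 5 libraries, among 12838 protein-coding genes with a mean of at least 1 CPM, the genes nearest to each member were the following, given as a description with no test. The nearest to PLAU were ELL2 (0.0425), DEPTOR (0.0482) and PPP1R14C (0.0651), with log2 fold changes of 1.87, 1.87 and 1.75. The nearest to PLAUR was TINCR (0.0318), to SERPINE2 DLK2 (0.0560), to SERPINI1 MAMDC4 (0.0268) and to L1CAM UBA3 (0.0127). For SERPINE2 the next were RHOC and FERMT2, which encode a GTPase of the actin cytoskeleton and an integrin activator, with log2 fold changes of 1.23 and 1.06. The profile of PLAT is flattened by the pseudocount at its level, and its nearest genes (KCNG3, CLDN12 and JCAD) have log2 fold changes of 0.27, 0.25 and 0.33.

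Of the endothelial markers, KDR and TEK differed between the control libraries. KDR went from 37, 27 and 2 reads to 12 and 4, and TEK from 31, 24 and 0 reads to 6 and 3, so that control replicate 3 was low for both.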
